A study of Homo sapiens with 20 samples.

Results

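The 10 plasma cell surface and signalling genes are described here by the regions where IRF4 and POU2AF1 were found around them. All 10 had an IRF4 region in both myeloma lines under control conditions, where 78.4% (MM1.S) and 90.5% (NCI-H929) of all protein-coding genes had one. The genes were TNFRSF17, TNFRSF13B, GPRC5D, FCRL5, SLAMF7, CD38, SDC1, CD27, IL6R and LAX1. They are 10 of 20007 protein-coding genes in the annotation. They were chosen by name, with earlier results of these data known, as surface or receptor genes of myeloma. Such genes are targets of antibodies, engineered T cells or signalling studies, and LAX1 among the 10 encodes an adaptor rather than a receptor. A region belonged to a gene when it overlapped the gene body of the GRCh38 annotation or the 25 kb on either side of it. The ChIP-seq libraries numbered 20, 1 for each combination of line, precipitated protein and treatment, so that no value below has a replicate and no p-value is given.

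In the 8 myeloma libraries IRF4 or POU2AF1 was precipitated from MM1.S or NCI-H929 cells treated with DMSO or with 1 µM AU-15330. MM1.S and NCI-H929 are established multiple myeloma lines, and AU-15330 is a degrader of the ATPases SMARCA2 and SMARCA4 of the mSWI/SNF chromatin remodelling complex. In the 12 other libraries NCI-H526 and NCI-H1048, lines of the tuft cell-like POU2F3 subtype of small cell lung cancer (SCLC-P), received the same treatments. There, POU2F3 was precipitated by its own antibody, and HA-tagged POU2F3 (both lines) or HA-tagged POU2AF2 (NCI-H526) through the tag, from cells carrying a dTAG fusion. A further NCI-H1048 pair was precipitated through an HA tag on a protein that its labels do not name. Exposure was 4 to 6 h in the labels. Lists held between 1327 and 89902 regions. The list of IRF4 regions in AU-15330-treated NCI-H929 cells was the shortest of the myeloma lists, with 1983 regions against 65176 under DMSO. The background pileup of these libraries was 2.23 and 2.44 fragments, and the cause of the difference in length was not tested.

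IRF4 is a transcription factor that plasma cells and myeloma cells depend on, and POU2AF1 is a coactivator of B lineage cells that POU-domain factors bring to octamer DNA. TNFRSF17 (BCMA) and TNFRSF13B (TACI) are receptors for the survival ligands APRIL and BAFF, IL6R is the binding subunit for the growth factor interleukin-6, and SDC1 (CD138) and CD38 are the surface proteins by which plasma cells are commonly recognised. TNFRSF17, GPRC5D, FCRL5, SLAMF7 and CD38 are also the surface antigens at which myeloma immunotherapies are directed.

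Sequence under 4 regions is shown first, since values that follow are measured there. For SDC1, which had the region of highest fold of the 10 genes in the NCI-H929 IRF4 list, and IL6R, which had the highest level there, the printed stretch is the highest-ranked IRF4 region of the DMSO lists that a POU2AF1 region of the same line also overlapped. The last pair are regions of the SCLC lists and were picked after their values were seen. Each runs 100 bases to either side of the summit on the plus strand of GRCh38. Capitals mark the octamer core TTTGCAT or the E-box CAGCTG.
SDC1 downstream, chr2:20193231-20193431: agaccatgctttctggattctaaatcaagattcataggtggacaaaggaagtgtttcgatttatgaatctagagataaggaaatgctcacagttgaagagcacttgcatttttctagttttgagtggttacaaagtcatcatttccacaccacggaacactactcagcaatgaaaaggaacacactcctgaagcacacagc
IL6R intron, myeloma, chr1:154445275-154445475: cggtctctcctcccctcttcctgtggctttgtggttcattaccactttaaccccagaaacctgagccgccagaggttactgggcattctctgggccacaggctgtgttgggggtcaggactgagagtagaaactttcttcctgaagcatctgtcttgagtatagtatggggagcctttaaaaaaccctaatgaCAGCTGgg
IL6R intron, SCLC, chr1:154413537-154413737: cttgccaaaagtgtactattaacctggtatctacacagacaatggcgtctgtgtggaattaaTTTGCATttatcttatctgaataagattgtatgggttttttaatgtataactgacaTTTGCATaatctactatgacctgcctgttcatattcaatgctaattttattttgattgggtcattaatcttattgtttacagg
GPRC5D downstream, SCLC, chr12:12927501-12927701: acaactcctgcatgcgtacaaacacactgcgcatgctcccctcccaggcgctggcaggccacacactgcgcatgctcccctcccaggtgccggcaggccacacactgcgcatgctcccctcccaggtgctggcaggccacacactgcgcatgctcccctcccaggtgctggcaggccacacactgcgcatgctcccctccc

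The SCLC region in an IL6R intron carried 2 octamer cores on the plus strand, at chr1:154413599-154413605 and chr1:154413655-154413661, on either side of its summit. The GPRC5D stretch is a tandem repeat in which 1 run of 20 bases occurred 5 times at a spacing of 39 bases. The SDC1 stretch, past the 3′ end of the gene, held neither motif, and the myeloma stretch of IL6R held 1 E-box near its end.

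Regions were dense around these genes in the myeloma DMSO lists. IRF4 regions numbered 52 in MM1.S and 73 in NCI-H929, and POU2AF1 regions numbered 57 and 33. In MM1.S both proteins, and in NCI-H929 IRF4, had a region at 10 of 10 genes, where 78.4%, 83.9% and 90.5% of all protein-coding genes had one. NCI-H929 POU2AF1 had one at 9 of 10, all but GPRC5D, against 81.3% of all genes. Having a region at all was therefore common for any gene. The number of regions per gene was higher at the 10 genes than at genes of like length. The difference is given as a description only, since the genes were chosen with earlier results of these data known. The median was 5 IRF4 and 6 POU2AF1 regions per gene in MM1.S, against 2 for genes of 2.86 to 75 kb, the range of lengths of the 10 genes, in both lists. In NCI-H929 it was 8 IRF4 and 3.5 POU2AF1 regions against 3 and 2. FCRL5 had the most IRF4 regions, with 8 in MM1.S and 12 in NCI-H929, counts that 2.34% and 2.91% of all genes reached. GPRC5D had the fewest, with 2 in each line, which 57.3% and 77.3% of all genes reached.

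**Figure D1:**
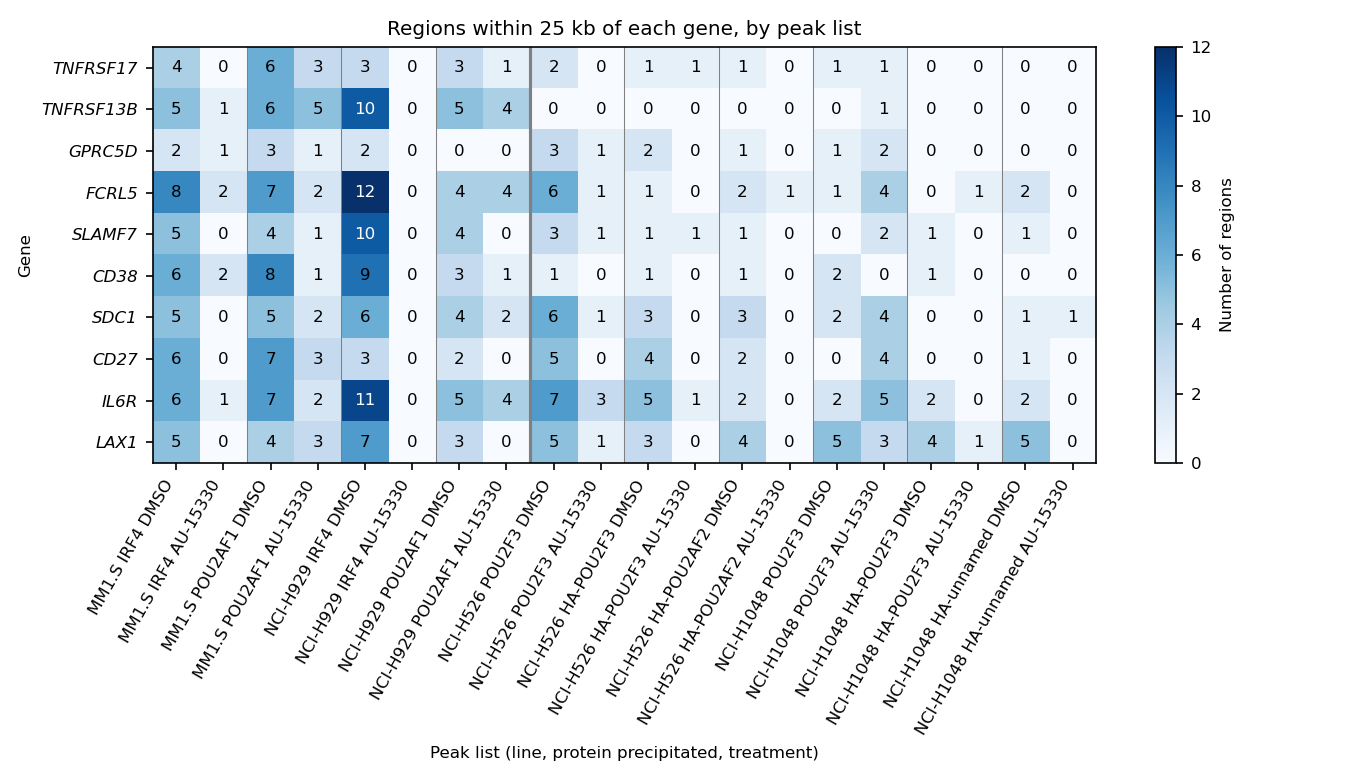
Number of regions within 25 kb of each of the 10 genes (rows) in each of the 20 peak lists (columns, by line, precipitated protein and treatment). Myeloma DMSO columns reach 12 at FCRL5, and the NCI-H929 IRF4 column with AU-15330 is 0 in every row.

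By fold the regions lay below the middle of their lists. Fold, the height of a region's summit over the local background of its own library, had a median of 4.08 at the members against 4.38 over the whole list for MM1.S IRF4, and of 3.86 against 4.62 for MM1.S POU2AF1. In NCI-H929 it was 4.11 against 4.91 for IRF4 and 3.79 against 4.5 for POU2AF1. Between 5.26% and 15.4% of their regions were in the top 20% of a list by fold. A high local background lowers fold, and that background was raised under several of these genes, as given below. A few ranked high: the CD38 intron region was at rank 154 of 33327 in MM1.S IRF4, and a region downstream of SDC1 was at rank 485 of 65176 in NCI-H929 IRF4.

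Joined across the 4 myeloma DMSO lists, the regions formed 93 sites, of which 16 were in all 4 lists and 35 in 1 list. IRF4 was at 79 sites and POU2AF1 at 65, with 28 sites that had IRF4 alone and 14 that had POU2AF1 alone. Start sites of the genes themselves, within 1 kb and counting alternative starts, held 13 sites, start sites of neighbouring genes 7, the bodies of the 10 genes 28, bodies of other genes 7 and stretches between genes 38. No region of the 6 SCLC DMSO lists touched 75 of the 93 (80.6%, exact 95% interval 71.1 to 88.1), near the 76.9% of all 93480 sites that the 4 myeloma lists formed over the genome.

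The TNF receptor genes differed in where their regions lay. At TNFRSF17 (chr16:11965210-11968068) the promoter site was in 4 of 4 DMSO lists. Levels there, the pileup divided by the background pileup of the library, were 12.3 for IRF4 and 15.6 for POU2AF1 in MM1.S and 17.6 and 14.1 in NCI-H929. This promoter region had the highest IRF4 fold of the window in both lines (chr16:11964932-11965192, fold 3.44, rank 29689, in MM1.S, and chr16:11964784-11965278, fold 4.08, rank 46129, in NCI-H929), ranks by fold in the weaker part of either list. A high local background lowers fold, and under the IRF4 regions of this window it was high. It was a median of 3.27 (MM1.S) and 3.5 (NCI-H929) times that of the library, against 1.46 and 1.37 over all regions. The other NCI-H929 IRF4 regions lay 2.03 kb upstream and at the promoter of the neighbouring NPIPB2, and all 3 NCI-H929 POU2AF1 regions were at these 2 promoters. With AU-15330 the TNFRSF17 promoter was called in 1 of the 4 lists, MM1.S POU2AF1, at a level of 12.4. POU2AF1 had its highest fold in the window at the NPIPB2 promoter, 11.7 kb from the TNFRSF17 start in MM1.S (fold 4.19) and 11.4 kb in NCI-H929 (fold 3.46). That site was also in 4 of the 6 SCLC DMSO lists, at levels of 4.59 to 8.68.

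TNFRSF13B (chr17:16929816-16972118), the receptor TACI, had 9 sites, none of them in an SCLC DMSO list, where 76.9% of all myeloma sites were in none. The site 16.2 kb upstream of its start was in 4 of 4 DMSO lists. Its highest levels were 22.8 for IRF4 and 15.2 for POU2AF1 in MM1.S and 43.8 and 15.8 in NCI-H929. The site joins several summits, and those of the 2 POU2AF1 values lay 17.6 and 17.3 kb upstream. With AU-15330 the site was called in 3 of 4 lists, at 15.8 for MM1.S IRF4, 13.4 for MM1.S POU2AF1 and 21.6 for NCI-H929 POU2AF1. The last overlapped a DMSO region at 13.3, while the NCI-H929 POU2AF1 region at 15.8 was not retained. The highest fold lay elsewhere in each list. It was 65.3 kb from the start, past the 3′ end, for MM1.S IRF4 (chr17:16906460-16907008, fold 8.78, rank 769), and in an intron 1.67 kb from the start for NCI-H929 IRF4 (chr17:16970271-16970843, fold 9.09, rank 5264). For POU2AF1 it was at the same downstream site in MM1.S (fold 5.35) and in an intron 24.5 kb from the start in NCI-H929 (chr17:16947489-16947858, fold 8.52, rank 1318).

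CD27 (chr12:6444955-6451718), a costimulatory TNF receptor, had no region at its own promoter in any of the 4 lists. An intronic site 1.64 kb from the start had MM1.S IRF4 at 9.58, MM1.S POU2AF1 at 13.4 and NCI-H929 POU2AF1 at 5.99. Of its 8 sites, 5 were at the genes next to it, TAPBPL and VAMP1. The VAMP1 promoter, 25.7 kb away, was in 4 of 4 lists at 8.66 for IRF4 and 20.5 for POU2AF1 in MM1.S and 11 and 8.13 in NCI-H929, and held the highest fold in 3 of them (7.89 for NCI-H929 IRF4, 8.29 for MM1.S POU2AF1 and 5.99 for NCI-H929 POU2AF1). For MM1.S IRF4 the highest fold was in an exon of TAPBPL (chr12:6461947-6462187, fold 5.35). The remaining NCI-H929 IRF4 regions were at a TAPBPL start and again at VAMP1. The VAMP1 promoter was also in 4 of the 6 SCLC DMSO lists.

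Of the other immunotherapy antigens, GPRC5D (chr12:12940575-12952170), an orphan receptor of the retinoic acid-induced family, had the least. Its promoter had 2 sites. The one nearest the start was at 5.47 in MM1.S IRF4, 6.14 in NCI-H929 IRF4 and 5.79 in MM1.S POU2AF1, and the one 0.974 kb into the gene was at 7.77 in NCI-H929 IRF4 and 7.13 in MM1.S POU2AF1. The latter had the highest fold of the window in NCI-H929 IRF4 (chr12:12951058-12951373, fold 4.93) and MM1.S POU2AF1 (chr12:12951005-12951320, fold 3.86). In MM1.S IRF4 the highest fold, 5.94, was in an exon of GPRC5A, 35.7 kb away, and the remaining MM1.S POU2AF1 region lay 13.4 kb from the start at a level of 4.46. None of the 5 regions at the promoter sites was called with AU-15330.

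FCRL5 (chr1:157513377-157552515), an Fc receptor-like protein of B lineage cells, had 14 sites, more than any other of the 10 genes, and 12 of them had IRF4. Its promoter had IRF4 in both lines, at 9.12 in MM1.S and 29 in NCI-H929, and POU2AF1 in neither. The 2 sites found in 4 of 4 lists lay at 28.3 kb, at the edge of an exon, and at 47 kb from the start, past the 3′ end. At the former, levels were 13.7 for IRF4 and 12.5 for POU2AF1 in MM1.S and 38.9 and 17.1 in NCI-H929. At the latter, IRF4 was at 9.12 in MM1.S and 20.9 in NCI-H929 and POU2AF1 at 8.47 and 16.3, and all but NCI-H929 IRF4 stayed called with AU-15330, at 7.9, 11.3 and 14.7. The exon-edge site held the highest fold of both NCI-H929 lists (chr1:157523811-157524601, fold 7.94, for IRF4 and fold 4.39 for POU2AF1), and its IRF4 summit fell within an E-box (chr1:157524214-157524219). In MM1.S the highest folds were downstream, at 40.2 kb for IRF4 (5.96) and 63 kb for POU2AF1 (4.84).

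SLAMF7 (chr1:160739057-160754821), an activating receptor of the SLAM family, had 13 sites of which 7 were in 1 list. Its promoter was at 10.5 in MM1.S IRF4, 15.1 in NCI-H929 IRF4 and 16.3 in NCI-H929 POU2AF1, with no region in MM1.S POU2AF1. Both lines had their highest IRF4 fold at the same site 4.99 kb upstream (fold 3.8 in MM1.S and 5.02 in NCI-H929), where POU2AF1 had no region. Both had their highest POU2AF1 fold at the same downstream site, 29.4 kb from the start (fold 4.95 in MM1.S and 4.83 in NCI-H929), where IRF4 had one too. No IRF4 or POU2AF1 region of SLAMF7 was retained with AU-15330 in either line, and the 1 region called there with the degrader, MM1.S POU2AF1 at a level of 12.4, overlapped none of the same list under DMSO.

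CD38 (chr4:15778275-15853232) encodes an ectoenzyme that consumes NAD and is bound by therapeutic antibodies, and none of its 11 sites was in an SCLC DMSO list, against the same 76.9% of all myeloma sites. The promoter site was in 4 of 4 lists at 14.6 for IRF4 and 12.9 for POU2AF1 in MM1.S and 24.5 and 15.4 in NCI-H929. An intron region 6.84 kb from the start (chr4:15784853-15785356) had an MM1.S IRF4 level of 29.2 and a fold of 11.6, while NCI-H929 IRF4 was at 12.3, MM1.S POU2AF1 at 11.6 and NCI-H929 POU2AF1 was not called. The lines thus differed in their strongest CD38 region, which for NCI-H929 IRF4 was 30.9 kb into the gene (chr4:15808972-15809553, level 33.1, fold 12.2, rank 1508). Both POU2AF1 lists had their highest CD38 fold at the promoter (5.69 in MM1.S and 7.49 in NCI-H929), and the other NCI-H929 POU2AF1 regions were that intron and a site 16.2 kb upstream. IRF4 remained called with AU-15330 in MM1.S at the promoter, from 14.6 to 6.58, and at the 6.84-kb intron site, from 29.2 to 9.21.

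At SDC1 (chr2:20200797-20225433), the heparan sulphate proteoglycan CD138, the strongest region by far was in 1 line. A site 32.1 kb from the start, past the 3′ end, had NCI-H929 IRF4 at a level of 35.2 (chr2:20193112-20193512, fold 14.9), against 6.84 for MM1.S IRF4 and 5.14 for NCI-H929 POU2AF1. It held the highest fold in NCI-H929 POU2AF1 also (3.34). MM1.S IRF4 had its highest fold in an intron 18.2 kb from the start (4.68) and MM1.S POU2AF1 at the promoter site 1.29 kb from it (3.88). The 2 promoter sites of SDC1 were called for POU2AF1 in both lines under DMSO and in both with AU-15330, at levels of 10.3 to 15.2 under DMSO and 10.3 to 12.7 with the degrader, whereas IRF4 was called at neither with AU-15330. Under DMSO they were also touched by NCI-H526 POU2F3 and HA-POU2AF2 regions, at 5.21 to 7.69, and the site at the start also by the unnamed HA protein of NCI-H1048. With AU-15330, NCI-H1048 POU2F3 was called at both, at 19.1 for the site 1.29 kb from the start and 7.24 for the other.

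IL6R (chr1:154405193-154469450) had the highest levels of the 10 genes in both NCI-H929 DMSO lists. In MM1.S the highest were at CD38 for IRF4 (29.2) and at LAX1 for POU2AF1 (23.6). Its promoter was in 4 of 4 lists, at 21.9 for IRF4 and 19.2 for POU2AF1 in MM1.S and 69.9 and 31.7 in NCI-H929. The intron region 40.2 kb from the start (chr1:154444954-154445651) was at 72.4 in NCI-H929 IRF4 and 38.9 in NCI-H929 POU2AF1, against 7.75 and 8.91 in MM1.S, and had the highest fold of the window in both NCI-H929 lists (10.5 and 7.66). In MM1.S the highest folds were at the promoter for IRF4 (4.94) and at 73.6 kb, in an intron of SHE, for POU2AF1 (4.4). With AU-15330 the promoter stayed called for MM1.S IRF4 (13.6), MM1.S POU2AF1 (22.1) and NCI-H929 POU2AF1 (42.1), and both POU2AF1 values exceeded those under DMSO.

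Around IL6R, FCRL5 and SLAMF7, which are on the long arm of chromosome 1, the background of NCI-H929 was raised over a wide stretch. Under their IRF4 regions in NCI-H929 the local background was a median of 6.25, 4.88 and 4.04 times that of the library, and within 1 Mb of the genes 4.81, 3.92 and 3.86 times, against 1.37 over all regions of the list. The other 7 genes were at 1 to 1.6 within 1 Mb in that list, although right under the IRF4 regions of TNFRSF17, SDC1 and TNFRSF13B the background was also high, at 3.5, 3.11 and 3.09, and under the POU2AF1 regions of TNFRSF17 at 4. POU2AF1 in NCI-H929 gave 4.69, 3.72 and 3.65 within 1 Mb, and MM1.S IRF4 gave 2.53, 2.17 and 2.17. A rise was not confined to the myeloma lines. NCI-H526 POU2F3 under DMSO gave 2.57, 1.81 and 1.88 within 1 Mb, against 1.3 over all its regions. LAX1, farther out on the same arm, was at 1.49 in NCI-H929 IRF4. Fold, which is taken over the local background, was 10.5 at the IL6R intron, below the 14.9 at SDC1, although the level at IL6R was higher. What raised the background was not tested.

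LAX1 (chr1:203765177-203776372), an adaptor that restrains antigen receptor signalling, had 6 sites, 3 of them in 4 of 4 lists. Its promoter had levels of 16 for IRF4 and 23.6 for POU2AF1 in MM1.S and 17.2 and 12.4 in NCI-H929, and held the highest fold of the window in each of the 4 lists (5.4, 6.77, 7.15 and 5.46 in MM1.S IRF4, MM1.S POU2AF1, NCI-H929 IRF4 and NCI-H929 POU2AF1). An IRF element on the minus strand (GAATGGAAA, chr1:203765151-203765159) lay beside the NCI-H929 IRF4 summit. The site 10.4 kb upstream was shared with all 6 SCLC DMSO lists, and the third, 30.4 kb downstream, was at the start of ZBED6, and these 3 sites held all NCI-H929 POU2AF1 regions of the window. With AU-15330 only MM1.S POU2AF1 was called at the LAX1 promoter, where it fell from 23.6 to 9.78.

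**Figure D2:**
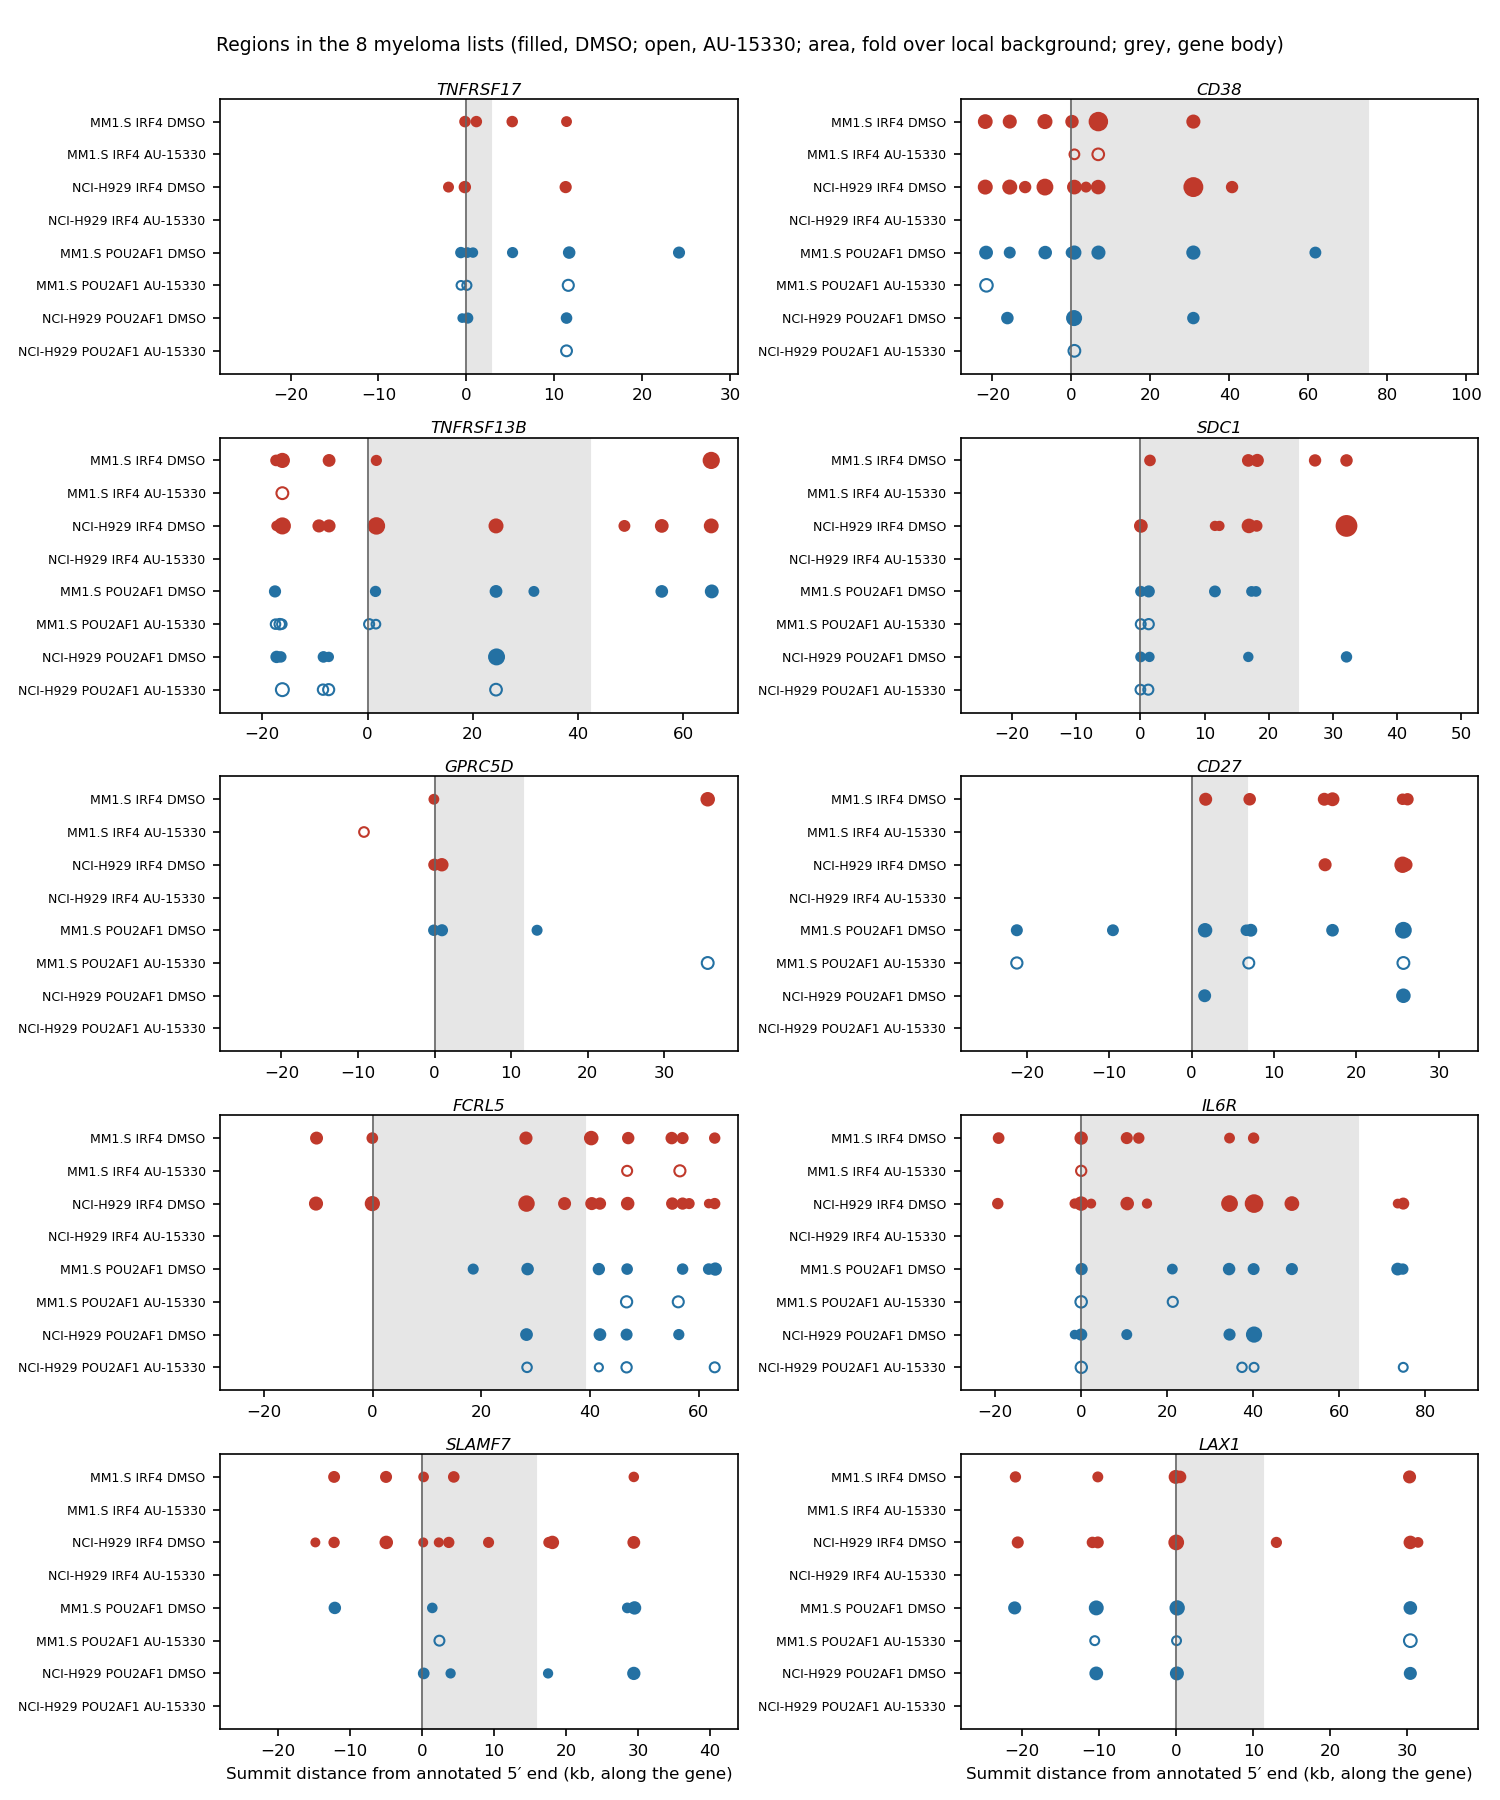
Regions of the 8 myeloma lists by the distance of their summit from the annotated 5′ end of each gene (kb along the gene; grey, gene body). Filled circles are DMSO, open circles AU-15330, red IRF4 and blue POU2AF1, and area follows fold; the NCI-H929 IRF4 row with AU-15330 is empty in all 10 panels.

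How far the proteins shared sites was asked next. Of the MM1.S IRF4 regions at the 10 genes, 34 of 52 (65.4%, exact 95% interval 50.9 to 78) were overlapped by a POU2AF1 region of the same line, against 55.6% over the whole list, and in reverse 33 of 57 (57.9%) against 48.8%. In NCI-H929 it was 31 of 73 IRF4 regions (42.5%, 31 to 54.6) against 32.6%, and 29 of 33 POU2AF1 regions (87.9%, 71.8 to 96.6) against 71.3%. Each share was above that of its list, but the interval left the list's share outside only for NCI-H929 POU2AF1, and there narrowly. Summits of the overlapping regions were a median of 102 bases apart in MM1.S and 46 bases in NCI-H929, against 88 and 77 over the whole lists.

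Between the lines, 41 of 52 MM1.S IRF4 regions (78.8%, 65.3 to 88.9) were overlapped by an NCI-H929 IRF4 region, against 65.1% of the list, and 42 of 73 in reverse (57.5%, 45.4 to 69) against 32.5%. For POU2AF1 it was 23 of 57 MM1.S regions (40.4%, 27.6 to 54.2) against 44%, and 23 of 33 NCI-H929 regions (69.7%, 51.3 to 84.4) against 54.6%. Both IRF4 intervals left out the share of the list, that of MM1.S narrowly, while both POU2AF1 intervals held it. These intervals cover counting error only, and the regions of 1 gene are not independent of each other.

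Most IRF4 regions of the 10 genes were not called with AU-15330, as in the whole lists. In MM1.S 5 of 52 (9.62%, 3.2 to 21) were overlapped by a region of the AU-15330 list, in a list where 9.76% were, and the count of genes with an IRF4 region went from 10 to 5, where 36.5% of all genes had one. At GPRC5D, among these 5, the region called with AU-15330 overlapped none of the DMSO list. In NCI-H929 0 of 73 were (up to 4.93%), in a list where 0.888% were, and 0 of 10 genes had a region, against 9.55% of all genes. Of the 73, 70 had a pileup that would have passed the weakest p-value of the AU-15330 list at its depth. The 5 retained MM1.S regions were the site upstream of TNFRSF13B, the FCRL5 site at 47 kb, the CD38 promoter, the CD38 intron and the IL6R promoter.

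POU2AF1 regions were retained at 18 of 57 in MM1.S (31.6%, 19.9 to 45.2) against 33.7% of the list, and at 13 of 33 in NCI-H929 (39.4%, 22.9 to 57.9) against 38.4%. With the degrader 10 of 10 genes had a POU2AF1 region in MM1.S (8 in windows of 10 kb), against 74.6% of all genes, and 6 of 10 in NCI-H929, against 71.9%. In MM1.S 8 of the 10 had one that overlapped a DMSO region, and GPRC5D and SLAMF7 had regions at other places only. In all 4 comparisons the interval at the 10 genes held the share of the whole list, so that no difference from the rest of the list was detectable. At MM1.S promoters of any gene in the windows 11 of 18 POU2AF1 regions were retained and elsewhere 7 of 39, where the whole list had 65.8% and 15.8%. NCI-H929 had 5 of 11 (45.5%) and 8 of 22 (36.4%), where the list had 71.9% and 16.1%. Its promoter regions thus lay below the list and its other regions above it, a difference by class that was not tested.

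**Figure D3:**
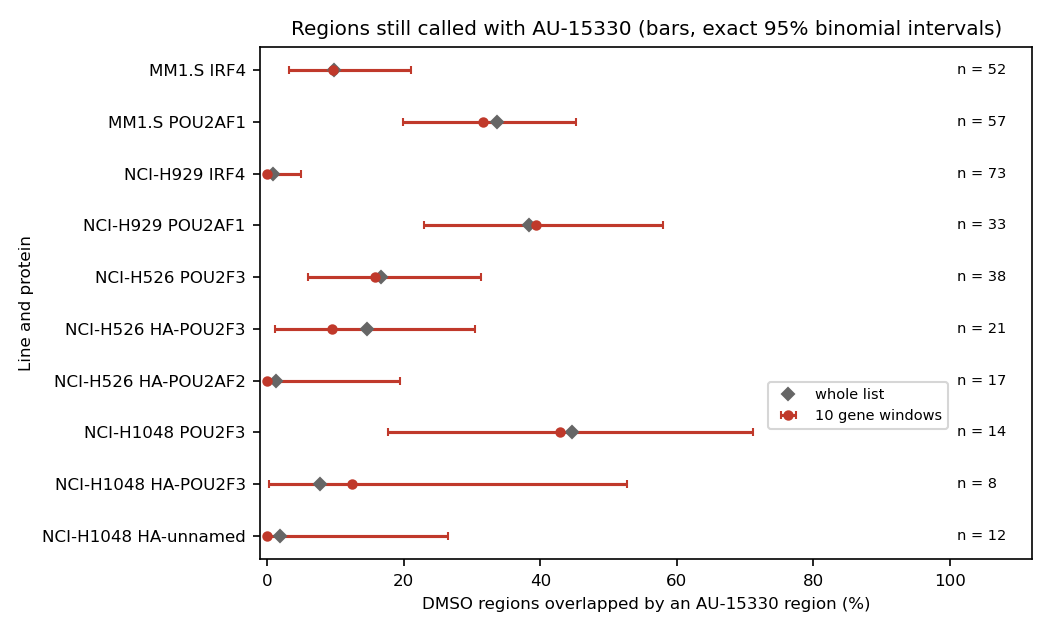
Share of DMSO regions overlapped by a region of the matching AU-15330 list, at the 10 genes (red, with exact 95% binomial intervals; n, number of DMSO regions) and over the whole list (grey), for the 10 pairs of lists. The interval of the 10 genes holds the value of the whole list in each pair, from 0.888% for NCI-H929 IRF4 to 44.6% for NCI-H1048 POU2F3.

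Where a region was kept, its level with AU-15330 could be set beside that under DMSO. The ratio was under 1 at 5 of 5 MM1.S IRF4 regions (0.316 to 0.866, median 0.621), lowest at the CD38 intron and highest at FCRL5, against a median of 0.733 and 83.7% lower over all retained regions of the list. It was under 1 at 13 of 18 MM1.S POU2AF1 regions (median 0.889, against 0.809 and 76.2% lower) and at 7 of 13 NCI-H929 POU2AF1 regions (median 0.904, against 0.979 and 52.8% lower). On fold over local background the share of lower MM1.S POU2AF1 regions turned round, to 27.8% in place of 72.2%, so the direction there depended on the scale. In NCI-H929 38.5% in place of 53.8% of the 13 were lower. Both values lay within the interval of 25.1 to 80.8, so no direction was clear on either scale. A region that was not called has no level in the files.

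**Figure D4:**
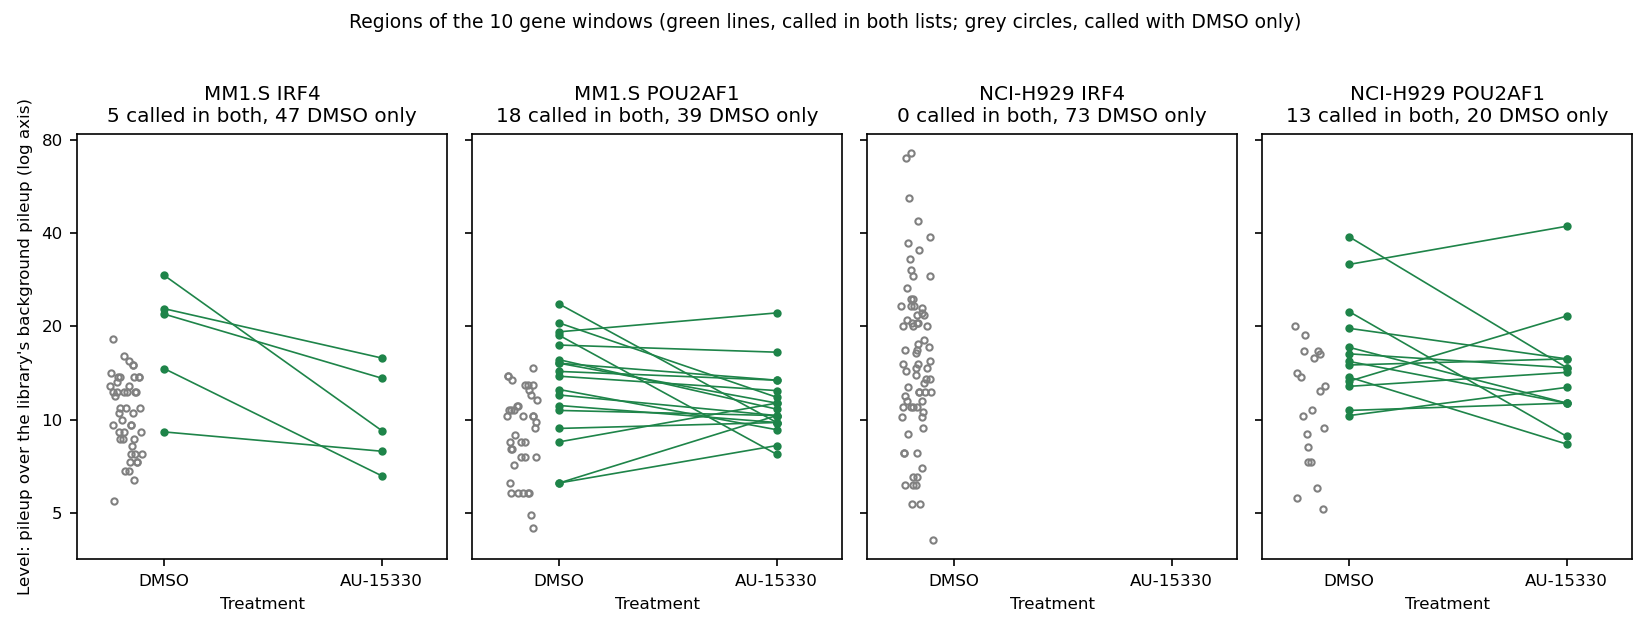
Level (pileup over the background pileup of the library, log axis) of each region of the 10 genes in the 4 myeloma pairs. Green lines join regions called in both treatments and grey circles are regions called with DMSO only; all 5 MM1.S IRF4 lines fall, and NCI-H929 IRF4 has none.

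The DNA at the summits was searched for 6 motifs on both strands, within 100 bases of the summit. The E-box CAGCTG, which reads the same on both strands, was in 14 of 52 MM1.S IRF4 regions (26.9%, 15.6 to 41) against 13.5% of the whole list, and in 20 of 73 NCI-H929 IRF4 regions (27.4%, 17.6 to 39.1) against 15.4%. It was in 13 of 57 MM1.S POU2AF1 regions (22.8%, 12.7 to 35.8) against 13.2%, and in 12 of 33 NCI-H929 POU2AF1 regions (36.4%, 20.4 to 54.9) against 13.6%. The interval of MM1.S POU2AF1 held the share of its list and the other 3 did not. Within 50 bases of the summit both IRF4 intervals held the share of the list (13.5%, 5.59 to 25.8, against 7.32% in MM1.S and 15.1%, 7.77 to 25.4, against 8.82% in NCI-H929), and both POU2AF1 intervals lay above it (21.1% against 7.05% and 21.2% against 7.43%). The 4 lists share sites, so these are not 4 separate observations. By site it was in 27 of 93, with 6 at FCRL5 and 5 at CD27, and at none of the sites of GPRC5D and LAX1. With promoters left out the shares were 25.6% to 40.9%, against 13.6% to 16.1%.

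The IRF element GAANNGAAA was in 17.3% of MM1.S IRF4 regions against 14.3% of the list, and in 12.3% of NCI-H929 IRF4 regions against 12.5%. The composite GGAANNGAA, which can overlap the IRF element, was at 9.62% against 9.46% and at 11% against 7.74%. The octamer core TTTGCAT was in 0 of 52 MM1.S IRF4 regions (up to 6.85%) against 4.59%, and in 5 of 57 MM1.S and 4 of 33 NCI-H929 POU2AF1 regions (8.77% and 12.1%) against 7.29% and 7.99%. In the SCLC lists it was common at the same genes, in 16 of 38 NCI-H526 POU2F3 regions (42.1%) against 46.9%. The AP-1 motif TGANTCA was in 2 of 73 NCI-H929 IRF4 regions (2.74%, 0.334 to 9.55) against 13.3%, and the RUNX motif AACCACA in 7 of 33 NCI-H929 POU2AF1 regions (21.2%, 8.98 to 38.9) against 7.72%. These 2 were picked after their values were seen, from 24 combinations of motif and list. The E-box values above belong to the same 24 combinations, and no allowance was made for their number. In the other line AP-1 was at 3.85% (0.469 to 13.2) against 7.91% in MM1.S IRF4, and RUNX at 7.02% against 8.59% in MM1.S POU2AF1. A match shows that the letters are there and does not show which protein was bound.

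**Figure D5:**
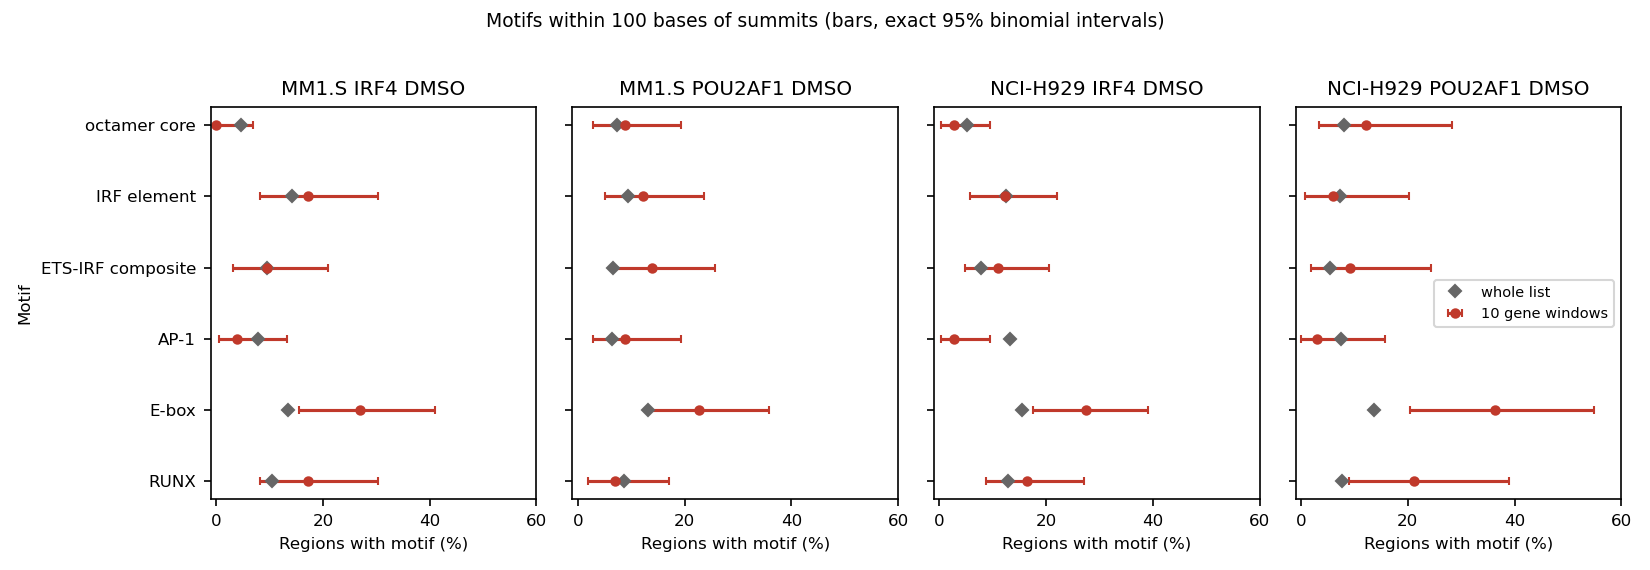
Share of regions with each of 6 motifs within 100 bases of the summit in the 4 myeloma DMSO lists, at the 10 genes (red, with exact 95% binomial intervals) and over the whole list (grey). The E-box lies above the whole list in all 4 panels, at 22.8% to 36.4% against 13.2% to 15.4%.

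In the SCLC lists, taken as a control, the same windows held a smaller share of the regions. The 10 genes held 0.0368% to 0.0634% of the regions of a DMSO list there, and 0.111% to 0.156% in the 4 myeloma DMSO lists. In number they had 8 to 38 regions, against 33 to 73. No SCLC library precipitated IRF4 or POU2AF1, so the parts of cell line and of precipitated protein in this difference cannot be told apart. Regions were found at 9 of 10 genes in NCI-H526 for POU2F3 (89.7% of all genes), HA-POU2F3 (84.4%) and HA-POU2AF2 (74.2%), and in NCI-H1048 at 7 for POU2F3 (76.5%), 4 for HA-POU2F3 (51.5%) and 6 for the unnamed HA protein (51.3%). TNFRSF13B had no region in any of the 6.

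With AU-15330 the count was 6 (48.6% of all genes), 3 (53.2%) and 1 (10.6%) in NCI-H526, and 9 (88.8%), 2 (26.9%) and 1 (5.44%) in NCI-H1048, in the same order. Of the NCI-H526 DMSO regions 6 of 38 POU2F3 (16.7% of the list), 2 of 21 HA-POU2F3 (14.6%) and 0 of 17 HA-POU2AF2 (1.26%) were overlapped with AU-15330. In NCI-H1048 it was 6 of 14 POU2F3 (44.6% of the list), 1 of 8 HA-POU2F3 (7.72%) and 0 of 12 regions of the unnamed HA protein (1.95%). The NCI-H1048 POU2F3 list with AU-15330 had 26 regions at these genes, more than under DMSO.

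A handful of SCLC regions were strong. An intronic IL6R region, 8.44 kb from the start, was in all 6 SCLC DMSO lists and in none of the 8 myeloma lists. Its level was 65.9 for POU2F3, 55.4 for HA-POU2F3 and 22.1 for HA-POU2AF2 in NCI-H526, and 27.4 for POU2F3 and 25.6 for HA-POU2F3 in NCI-H1048. With AU-15330 it was 47.4 and 12.9 for the NCI-H526 POU2F3 and HA-POU2F3 lists and 9.22 for NCI-H1048 POU2F3, and was not called in the other 3. The IL6R window thus held a region of SCLC lists and regions of myeloma lists, and the strongest of either were at different places.

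The GPRC5D window held the highest fold of the 10 genes in both POU2F3-antibody lists, 24.6 kb from the start, past the 3′ end, and the summits lay in the tandem repeat printed above. Fold was 18.4 (rank 55) in NCI-H526 and 18 (rank 77) in NCI-H1048, and the level went from 40.2 to 22.2 with AU-15330 in the former and from 56.1 to 100 in the latter. No HA list of either line had a region there of like height. The nearest, NCI-H526 HA-POU2F3 at a level of 5.12, had its summit 437 bases away. The part of the repeat in that signal was not tested. Elsewhere in the window, 18.2 kb from the start, NCI-H526 HA-POU2F3 had a region at a level of 25.6 (fold 13.9, rank 472). The POU2F3 antibody of that line was at 5.21 there, and neither region was retained with AU-15330.

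Other genes of the same families and pathways were counted in the same way. TNFSF13 (APRIL), TNFSF13B (BAFF) and the BAFF receptor TNFRSF13C, counted together with CD70, the ligand of CD27, had an IRF4 region at 4 of 4 genes in both lines under DMSO and at 1 of 4 in both with AU-15330, TNFSF13 in MM1.S and TNFRSF13C in NCI-H929. IL-6 signalling genes (7, among them IL6ST, JAK1 and STAT3) had one at 6 in MM1.S and 7 in NCI-H929, and at 5 and 1 with the degrader. SLAM and Fc receptor-like paralogs (13, of which LY9, CD48 and FCRL4 lie in the windows of SLAMF7 or FCRL5) had one at 12 and 13, and at 3 and 1. GPRC5 and syndecan genes (5, of which GPRC5A is in the window of GPRC5D) had one at 3 and 4, and at 1 and 0. Of all protein-coding genes, 78.4% in MM1.S and 90.5% in NCI-H929 had an IRF4 region under DMSO, and 36.5% and 9.55% with AU-15330.

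For POU2AF1 the counts under DMSO, in MM1.S and NCI-H929, were 3 and 2 of these 4 TNF family genes, 7 and 6 of the 7 IL-6 genes, 13 and 13 of the 13 paralogs and 5 and 4 of the 5 GPRC5 and syndecan genes. With AU-15330 they were 3 and 3, 7 and 7, 5 and 12, and 3 and 2. Of all protein-coding genes, 83.9% and 81.3% had a POU2AF1 region under DMSO, and 74.6% and 71.9% with AU-15330. Presence of a region did not follow the cell type of a gene: T cell surface genes had an IRF4 region at 8 of 8 in both lines and B cell surface genes likewise, and myeloid surface genes had one at 4 and 5 of 6.

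The number of regions per gene varied more. The lists of related genes were also chosen with earlier results of these data known, so the medians are a description only. The median number of IRF4 regions per gene was 5 in MM1.S and 8 in NCI-H929 at the 10 genes and 5 and 7 at 8 plasma cell marker genes such as PRDM1, XBP1 and JCHAIN. It was 2 and 3 for T cell surface, B cell surface and tuft cell genes, and 1 and 3 for myeloid surface genes, which is near the 2 and 3 of genes of like length. POU2AF1 gave 6 and 3.5 at the 10 genes, 6.5 and 3.5 at the plasma cell markers, and 2.5 and 1.5 at T cell surface and at tuft cell genes. Genes of like length had 2 and 2. Some related lists lay between. IL-6 signalling genes had IRF4 medians of 3 and 4 and POU2AF1 medians of 5 and 3. The SLAM and Fc receptor-like paralogs had 2 and 5, and 2 and 3. GPRC5 and syndecan genes had 2 and 3, and 3 and 3. The 4 TNF family genes had 3 and 2.5, and 2.5 and 0.5. The lists of markers had 8 of 8 plasma cell genes with a region in the 4 myeloma DMSO lists, and 7 or 8 of 8 tuft cell genes in the 6 SCLC DMSO lists. However, 5 to 8 of 8 tuft cell genes had one in the myeloma DMSO lists, and 3 to 8 of 8 plasma cell genes in the SCLC DMSO lists. Of all protein-coding genes 78.4% to 90.5% had one in the former lists and 51.3% to 89.7% in the latter. Presence alone thus did not separate myeloma from SCLC lists.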

How the data were processed

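The deposited files were 20 peak lists, 1 per library, called by the authors with MACS2 at a q-value of 0.05 in each library by itself, with no control library named, after trimming with Trimmomatic 0.39, alignment with BWA to GRCh38/hg38 and removal of duplicates and blacklisted regions. Each deposited region carries the authors' fold (ratio) of the summit pileup over local background, the −log10 of its p-value and q-value, and a score that is a whole-number form of the −log10 q; the score was not used further. Regions off the main chromosomes were left out (0.283% to 12.4% of a list).

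From these values the whole-number pileup and the local background were solved for each region (99.9% to 100% of regions in 18 lists, tolerance 0.002 on the −log10 p). In the pair of NCI-H1048 lists of the unnamed HA protein only 2.6% and 6.03% could be solved, so no levels are given for them. Level was the pileup over the lowest local background of the library, taken as its depth, since read totals were not used here. Background pileup was 1.94 to 2.44 fragments in the myeloma libraries.

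A DMSO region was retained when a region of the AU-15330 list of the same line and protein overlapped it by 1 base. Promoters were within 1 kb of a protein-coding start of GENCODE 44. Of each window the region of highest fold in each myeloma DMSO list is named, and every region where a window held 3 or fewer. Intervals are exact 95% binomial (Clopper-Pearson) and cover counting error only. Motifs were matched to the GRCh38 sequence. The sequence under some regions is not reported here. With 1 library per group no test between treatments was possible. Python 3.11.15, numpy 2.4.6 and scipy 1.17.1 were used, and the solving and overlap steps were tested on simulated data. The alternatives tried were a stricter q, windows of 10 and 50 kb, a 50% overlap, equal list lengths, regions callable at the depth of the treated library and, chosen after seeing the data, other scales and motif windows. The members and the lists of related genes were chosen with earlier results of these data known.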

Additional observations from a re-analysis of the deposited data

Results flagged for a closer look

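With the POU2F3 antibody, AU-15330 changed the number of regions at the 10 genes in opposite directions in the 2 SCLC-P lines. It went from 38 to 8 in NCI-H526, a difference of -30, and from 14 to 26 in NCI-H1048, a difference of 12. The difference between the lines was not tested, since each list is 1 library. HA-POU2F3, precipitated through its tag, fell in both lines, from 21 to 3 and from 8 to 2. The whole POU2F3 lists moved the same ways, from 89902 to 17836 and from 38036 to 51408 regions. The background pileup of the libraries went from 4.03 to 2.02 in NCI-H526 and from 2.27 to 3.04 in NCI-H1048, and its part in the counts was not tested.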

How the results depend on the processing

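Of 146 values under alternatives, 130 stayed within the main 95% interval (for counts of genes, within 1.5 times). Retained shares moved as follows. MM1.S IRF4 went from 9.62% to 0% when 50% of a region had to be covered, and to 25% (of 8 regions) with lists cut to equal length. NCI-H526 POU2F3 went to 85.7% (of 7) with equal lengths. The 1 retained NCI-H1048 HA-POU2F3 region was lost (0%) at −log10 q of at least 5, in 10-kb windows, at 50% coverage and with equal lengths. Summed over the 4 myeloma pairs, 16.7% were retained and 25.4% without the NCI-H929 IRF4 pair. IRF4 regions with POU2AF1 went to 50% in MM1.S at the stricter q and to 30.1% in NCI-H929 at 50% coverage. NCI-H929 IRF4 regions shared with MM1.S went to 44.1% at the stricter q and to 41.1% at 50% coverage. In 50-kb windows 1 gene in place of 0 had an NCI-H929 IRF4 region with AU-15330. On the authors' fold, 27.8% in place of 72.2% of retained MM1.S POU2AF1 regions were lower, which turned the direction. For those of NCI-H929 it was 38.5% in place of 53.8%, within the main interval (25.1 to 80.8). Within 50 bases of the summit the E-box share was 13.5% for MM1.S IRF4 and 15.1% for NCI-H929 IRF4, where the whole lists had 7.32% and 8.82%, and both intervals then held the share of the list. The last 2 settings and the left-out pair were chosen after seeing the data. Fewer bases or regions counted lower several of these by construction; other causes were not tested. Regions callable at the treated depth could not be had for the unnamed HA protein. No paired analysis was possible because each group was 1 library. The small numbers of regions limit each share to the intervals given, and a region absent from a list has no level, so loss and weakening below the threshold cannot be told apart. A region near a gene is not shown to act on it, and the windows hold other genes.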
